A study of Homo sapiens with 5 samples.

Results

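The heat shock factor genes HSF1, HSF2 and HSF4 and the binding-protein genes HSBP1 and HSF2BP were examined for sites called by CUT&RUN of HSF1 and of MYC. These 5 of 20033 protein-coding genes (GENCODE release 44, GRCh38) were taken because they encode the family itself and proteins named for binding it. For each gene, every peak overlapping by at least 1 bp the stretch from 5 kb upstream of its outermost annotated start to its end was collected from the 4 peak lists. All samples were proliferating OVCAR8 cells, an established line of high-grade serous ovarian cancer in which the study describes both HSF1 and MYC as amplified, and no treatment or genotype separated them. In each reaction 500000 cells, fixed with 1% formaldehyde for 1 min, were incubated with an antibody to HSF1, an antibody to MYC or a control IgG, and antibody-directed nuclease cleavage released the DNA around bound sites. There were 2 HSF1 lists, 2 MYC lists and 1 IgG library, which entered only as the control of each call. The antibody libraries held 8265647 to 10084407 fragments after filtering and the IgG library 9306942. Nothing stated that replicates came from separate cultures, so the spread between them may be technical.

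HSF1 is the main activator of the heat shock response. Chaperones hold it as an inactive monomer, and on release it forms trimers that bind heat shock elements, runs of the unit GAA in alternating orientation. HSF2 can join HSF1 in mixed trimers, HSF4 is best known from the lens, HSBP1 binds trimerized HSF1 and dampens its activity, and HSF2BP was found as a partner of HSF2 and also acts with BRCA2 in meiotic recombination. MYC binds DNA with MAX, preferably at the E-box CACGTG.

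The sequences that bear on the results come from the 2 genes whose promoter entries hold an E-box and from the sites called with the HSF1 antibody. RefSeq promoter entries on GRCh38 were present for 3 of the 5 genes, HSF2, HSF4 and HSBP1. The bases before the HSF2 start and the stretch around its second E-box are shown first, with CACGTG in capitals, followed by the E-box at the HSF4 start. The next pair surrounds the summits of the only 2 HSF1 peaks at these genes, inside HSF2BP. The last lies inside the strong HSF1 peak upstream of HSBP1L1, a paralog of HSBP1, and surrounds its overlapping heat shock elements, which are in capitals. All are on the plus strand of GRCh38, 5′ to 3′.
HSF2 promoter, chr6:122399301-122399550: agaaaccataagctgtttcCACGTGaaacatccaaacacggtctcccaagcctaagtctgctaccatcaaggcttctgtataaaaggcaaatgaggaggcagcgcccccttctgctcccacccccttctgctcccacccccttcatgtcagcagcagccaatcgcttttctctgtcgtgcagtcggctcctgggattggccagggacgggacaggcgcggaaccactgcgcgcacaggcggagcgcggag
HSF2 second E-box, chr6:122399549-122399578: agacttgtccgtCACGTGcggccgcccggc
HSF4 E-box, chr16:67164668-67164697: cccgcgggcttgCACGTGgcccccgcctga
HSF2BP intron 8, chr21:43586099-43586299: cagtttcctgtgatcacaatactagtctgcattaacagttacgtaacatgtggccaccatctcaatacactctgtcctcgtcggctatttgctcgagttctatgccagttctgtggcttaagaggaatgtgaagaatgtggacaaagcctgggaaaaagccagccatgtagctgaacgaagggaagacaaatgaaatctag
HSF2BP intron 7, chr21:43600691-43600891: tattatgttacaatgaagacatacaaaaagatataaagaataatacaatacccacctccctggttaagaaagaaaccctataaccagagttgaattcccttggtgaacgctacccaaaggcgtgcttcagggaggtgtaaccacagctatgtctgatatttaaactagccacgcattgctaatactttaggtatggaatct
HSBP1L1 upstream, chr18:79962015-79962152: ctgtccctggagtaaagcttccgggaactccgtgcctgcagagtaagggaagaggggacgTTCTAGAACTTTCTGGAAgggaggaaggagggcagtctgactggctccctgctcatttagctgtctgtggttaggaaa

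MYC peaks lay at the starts of HSF1, HSF4 and HSF2BP in both MYC lists and at the start of HSF2 in MYC replicate 1, whereas HSBP1 had no peak in any list. HSF1 peaks were called at none of the 5 starts. MYC replicate 1 held a peak in the window of 4 of the 5 genes, beside 63.3% of all protein-coding genes. MYC replicate 2 held a peak for 3 of the 5, beside 46.2%, and both MYC lists did for the same 3 genes, HSF1, HSF4 and HSF2BP, beside 45.4%. With 5 genes, these counts lie near the shares over all genes. Within 1 kb of the start, 4 of 5 genes had a peak in MYC replicate 1, beside 48.3% of all genes. For MYC replicate 2 the count was 3 of 5, beside 35.7%, and these 3 were called in both lists, beside 34.5%. The windows held 11 peaks of MYC replicate 1 and 6 of MYC replicate 2.

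With the HSF1 antibody, HSF1 replicate 1 had a peak in the window of 1 of the 5 genes, HSF2BP, where 16.5% of all genes had a peak. HSF1 replicate 2 had none, where 12.3% did, and no gene had a peak in both HSF1 lists, where 7.81% did. No member had an HSF1 peak within 1 kb of its start in either list, beside 6.53% of all genes in replicate 1, 5.12% in replicate 2 and 2.54% in both. At shares this low, 0 of 5 genes does not stand apart from the background. An exact permutation test of 2 lists against 2 cannot give a two-sided p below 0.333, so the lists are compared by their values. A peak missing from a list was not called at that depth and threshold, and is not thereby absent.

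The merged peaks formed 11 regions, 1 at HSF1, 2 at HSF2, 3 at HSF4 and 5 at HSF2BP. Every region was in MYC replicate 1 and 6 were also in MYC replicate 2. Only 1, in intron 7 of HSF2BP, was in 3 lists, and 0 were in all 4.

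**Figure D1:**
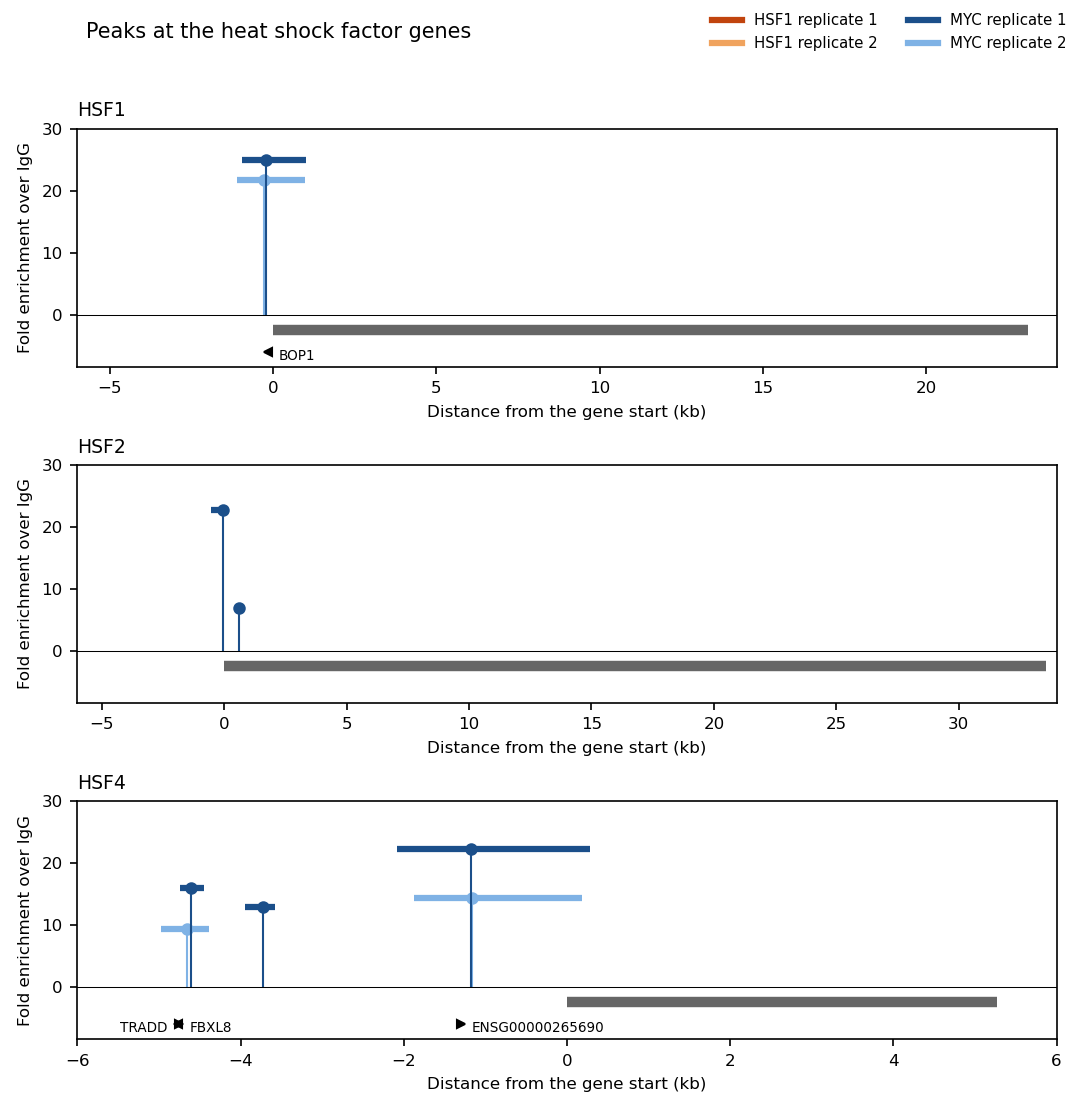
Peaks at HSF1, HSF2 and HSF4. The x axis is the distance from the outermost gene start in kb, with transcription to the right. The y axis is fold enrichment over IgG. Horizontal bars span each peak, dots and stems mark its summit, and the grey bar is the gene. Arrowheads mark starts of other genes within 1 kb of a peak. Every peak is from a MYC list, the wide peak of HSF4 has its summit 1178 and 1161 bp upstream of the gene, and HSF2 has none from MYC replicate 2.

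The gene for HSF1 itself (ENSG00000185122, chr8:144291591-144314720, plus strand) carried a wide and high MYC peak over its start in both MYC lists. In MYC replicate 1 the peak ran from 144290651 to 144292606, with a pileup of 52 fragments at its summit and a fold enrichment over IgG of 25.0. In MYC replicate 2 it ran from 144290479 to 144292556, with a pileup of 50 and a fold enrichment of 21.7. Both lists therefore gave nearly the same interval and height, with a mean fold enrichment of 23.4 ± 2.31 (SD, n = 2). The −log10 p of the caller was 67.5 in replicate 1 and 60.2 in replicate 2.

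At HSF1 the fold enrichment exceeded that of 93.5% of the peaks of MYC replicate 1 and 95% of those of MYC replicate 2. Its widths of 1956 and 2078 bp exceeded those of 99.0% of the peaks in each list, against median widths of 460 and 451 bp. Among genes with a MYC peak within 1 kb of the start, HSF1 was above 87.8% of 9673 genes in replicate 1 and 91.9% of 7142 in replicate 2. The IgG background that the caller used at the summit, worked back from pileup and fold enrichment, was 1.12 and 1.35 fragments. These backgrounds were above 53.5% and 47.2% of those of all peaks in the same lists. Copy number was not measured in these libraries, and its part in the height was not tested.

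The peak at HSF1 also covered the start of BOP1, a gene for ribosome biogenesis that is read in the opposite direction from a start 153 bp away. The summits lay 222 and 295 bp upstream of HSF1, and only 69 and 142 bp from the BOP1 start. The signal cannot be assigned to either gene by position. The region held 2 E-boxes, starting at 144291214 and 144292307, the first 82 bp from the nearer summit and the other 938 bp away. It held no heat shock element, defined as 3 alternating GAA units without mismatch over 13 bp on either strand.

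No HSF1 peak lay near the HSF1 gene. The closest was 346 kb from the window in HSF1 replicate 1 and 58.2 kb in HSF1 replicate 2, with fold enrichments of 6.37 and 4.47. By contrast, MYC peaks were dense around HSF1: 88 summits lay within 1 Mb of the canonical start in MYC replicate 1 and 77 in MYC replicate 2, against medians of 28 and 14 over all protein-coding genes. Of the 88, 76 overlapped a peak of the other replicate (86.4%), while genome-wide 46.9% of the peaks of MYC replicate 1 did. The HSF1 lists held 6 and 7 summits in the same interval, against medians of 5 and 4. Dense MYC peaks were not particular to HSF1. Around HSF4 there were 80 and 51 summits in MYC replicates 1 and 2. In those lists 95.5% and 94.2% of protein-coding genes had fewer than HSF4, and 97.4% and 98.8% had fewer than HSF1.

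HSF2 (ENSG00000025156, chr6:122399551-122433119, plus strand) had a start-site peak in MYC replicate 1 and no peak at all in MYC replicate 2. In the former a peak of 679 bp covered its start, from 122399030 to 122399708, with a pileup of 42, a fold enrichment of 22.8 and a −log10 p of 55.4. This was higher than 90.9% of the peaks of that list and above 83.8% of genes with a start-site peak. In MYC replicate 2 the nearest peak to the HSF2 window was 958 kb away. Replicate 1 is the smaller MYC library, with 8265647 fragments against 10084407, but the larger list, with 25646 peaks against 13290.

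Peaks as high as that of HSF2 were mostly found in both MYC lists. Of 899 start-site peaks of MYC replicate 1 with a fold enrichment within 10% of the value at HSF2, 840 (93.4%) overlapped a peak of replicate 2, which places HSF2 with the remaining minority. This comparison, and the counts within 1 Mb, were chosen after the values were seen. The interval around HSF2 was poor in peaks: 3 summits in MYC replicate 1 and 1 in MYC replicate 2 lay within 1 Mb, where 3.32% and 3.38% of protein-coding genes had fewer, and 0 of the 3 overlapped a peak of the other list. What separates the replicates at HSF2 was not tested.

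The HSF2 summit lay 60 bp upstream of the outermost start and 161 bp upstream of the canonical start. Both E-boxes printed above were inside the peak, the first starting at 122399320, which is 171 bp from the summit, and the second at 122399561, 70 bp from it. An E-box lay within 100 bp of the summit in 6.74% of the peaks of MYC replicate 1 and 6.82% of those of replicate 2, and 7.26% of 35116 RefSeq promoters held 1. A second and weaker peak of MYC replicate 1, from 122400092 to 122400280 in intron 1, had a fold enrichment of 6.89 and a pileup of 12, and only 18.0% of peaks of that height were in replicate 2. With the HSF1 antibody the nearest peaks to HSF2 were 571 kb away in replicate 1 and 1060 kb in replicate 2.

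HSF4 (ENSG00000102878, chr16:67164681-67169945, plus strand) is a short gene with MYC peaks over and upstream of its start. The main peak ran from 67162593 to 67164963 in MYC replicate 1, with a fold enrichment of 22.3 and a pileup of 66. In MYC replicate 2 it ran from 67162811 to 67164865, with a fold enrichment of 14.3 and a pileup of 49. Both intervals covered the HSF4 start, and the mean fold enrichment was 18.3 ± 5.65 (SD, n = 2), the widest relative spread of the 3 genes called in both lists.

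The main HSF4 peak had its summit upstream of the gene, by 1178 bp in MYC replicate 1 and 1161 bp in MYC replicate 2. The summits were 118 and 135 bp from the start of ENSG00000265690, an overlapping protein-coding gene on the same strand whose start is 1296 bp upstream. When a summit within 1 kb was required in place of an overlap, HSF4 was no longer counted and 2 of the 5 genes had a start-site peak in both MYC lists. The IgG background at these summits was 2.0 and 2.49 fragments, against medians of 1.04 and 1.45 over all peaks of the lists. The E-box printed for HSF4, starting at 67164680 at the gene start itself, was inside both peaks but 1160 bp from the nearest summit.

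Farther upstream, a second HSF4 region was called in both MYC lists, at 67159934-67160239 in replicate 1 with a fold enrichment of 16.0 and at 67159712-67160300 in replicate 2 with 9.39. It lay by the paired starts of FBXL8, 142 and 90 bp from the summits, and of TRADD, an adaptor of tumor necrosis factor signaling, 165 and 113 bp away. Another peak, at 67160736-67161103, was in MYC replicate 1 alone with a fold enrichment of 12.9, a height at which 44.5% of peaks were found in replicate 2. No heat shock element was in any of the 3 regions. The nearest HSF1 peaks were 71.2 and 71.5 kb away in the 2 HSF1 lists, with fold enrichments of 6.58 and 7.48.

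**Figure D2:**
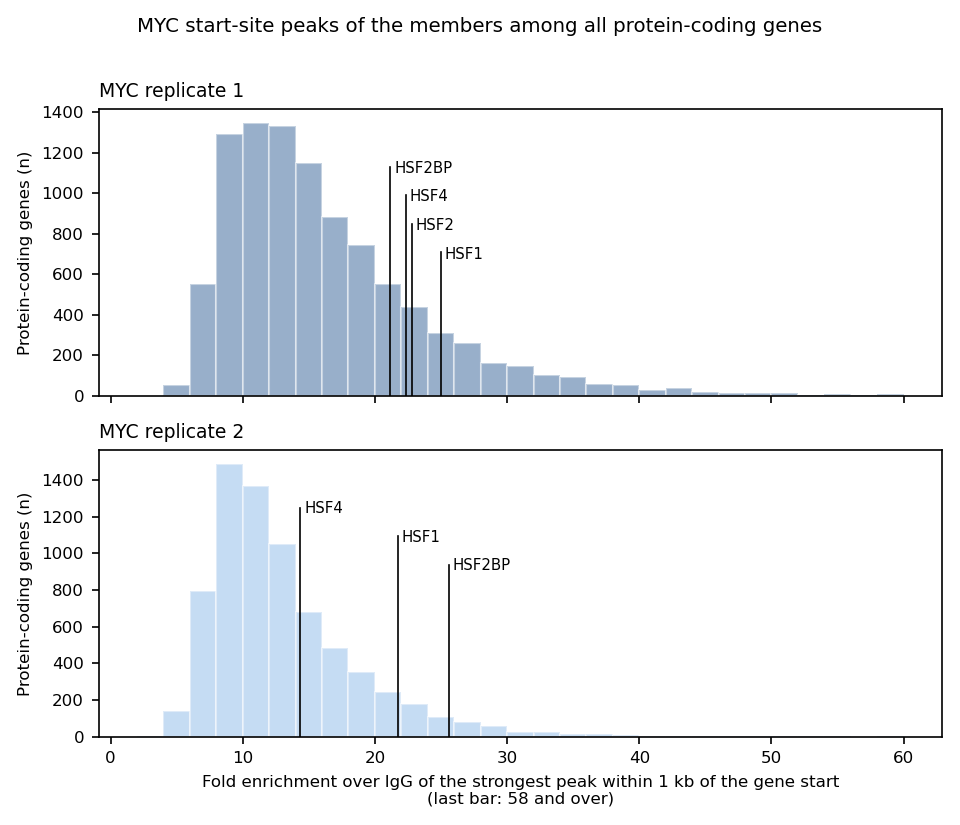
Height of the MYC start-site peaks. Bars count protein-coding genes by the fold enrichment over IgG of the strongest MYC peak within 1 kb of the start (9673 genes in replicate 1, 7142 in replicate 2), and vertical lines mark the members, whose line lengths differ only to separate the names. The 4 members in replicate 1 lie between 21.2 and 25.0, above the upper quartile of 19.8, and HSF4 in replicate 2 lies at 14.3, below the upper quartile of 15.5.

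HSF2BP (ENSG00000160207, chr21:43529186-43659488, minus strand) was the only member with peaks from both antibodies. At its start, a peak ran from 43659116 to 43660142 in MYC replicate 1, with a fold enrichment of 21.2 and a pileup of 32. In MYC replicate 2 it ran from 43659161 to 43660118, with a fold enrichment of 25.6 and a pileup of 43. By fold enrichment it was higher than 88.2% and 97.7% of the peaks of MYC replicates 1 and 2. By pileup it was higher than 67.3% and 85.4%. The mean fold enrichment was 23.4 ± 3.13 (SD, n = 2), which cannot be separated from the mean at HSF1 given the spread. The IgG background was low here, at 0.559 and 0.719 fragments, equal to 3 digits to the lowest value in each list.

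The HSF2BP summits lay 134 and 139 bp inside the gene, in intron 1, and the peak covered the start of RRP1B, a nucleolar protein gene read in the opposite direction from 72 bp away. Of the 2 E-boxes in the region, that starting at 43659435 was 81 bp from the nearest summit and that at 43659887 was 533 bp away. Thus HSF1 and HSF2BP both had a MYC peak over a pair of opposed starts with an E-box within 100 bp of a summit. At HSF2BP this held for the summits of both MYC lists, and at HSF1 for that of MYC replicate 2 only. The HSF2 start-site peak also had an E-box that near its summit. How common the arrangement is over all genes was not computed.

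Inside HSF2BP there were 4 more regions. That in intron 7 at 43600676-43601402 was the only region of any member found in 3 lists, with fold enrichments of 4.81 in HSF1 replicate 1, 16.5 and 11.5 in MYC replicates 1 and 2. The HSF1 summit was 278 bp from that of MYC replicate 1 and 331 bp from that of MYC replicate 2. That in intron 8 at 43585912-43586581 was called in HSF1 replicate 1 with a fold enrichment of 8.74 and in MYC replicate 1 with 14.7, with summits 41 bp apart. The HSF1 peak in intron 8 was higher than 90.8% of the peaks of its list, whereas that in intron 7 was higher than 44.1%.

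Neither HSF1 peak was in HSF1 replicate 2. Of all HSF1 replicate 1 peaks within 10% of their heights, 67.1% were in replicate 2 for the height in intron 8 and 23.9% for that in intron 7. Their pileups were 13 and 9 fragments, against a lowest pileup of 5 in that list. Neither 201 bp sequence printed for these sites, with GC contents of 44.8% and 38.3%, held a heat shock element, a pair of alternating GAA units over 8 bp, or an E-box. Heat shock elements were within 100 bp of the summit in 6.51% of the peaks of HSF1 replicate 1 and 5.97% of those of replicate 2, and the shorter pair in 23.9% and 23.6%, so most HSF1 peaks lacked both.

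The remaining intronic regions of HSF2BP were MYC peaks. That at 43609517-43610128 in intron 7 was called with a fold enrichment of 25.7 in MYC replicate 1 and 11.1 in MYC replicate 2, and its summits were 289 and 267 bp from the start of the microRNA gene MIR6070. That at 43597138-43597325 was in MYC replicate 1 alone, with a fold enrichment of 6.12. The HSF2BP window is long, at 135 kb, and long windows collect more peaks. Among 2295 protein-coding genes with windows of 100 to 200 kb, 27.5% had a peak in HSF1 replicate 1, 7.32% had 2 or more, as HSF2BP did, and 77.0% had a peak in MYC replicate 1.

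**Figure D3:**
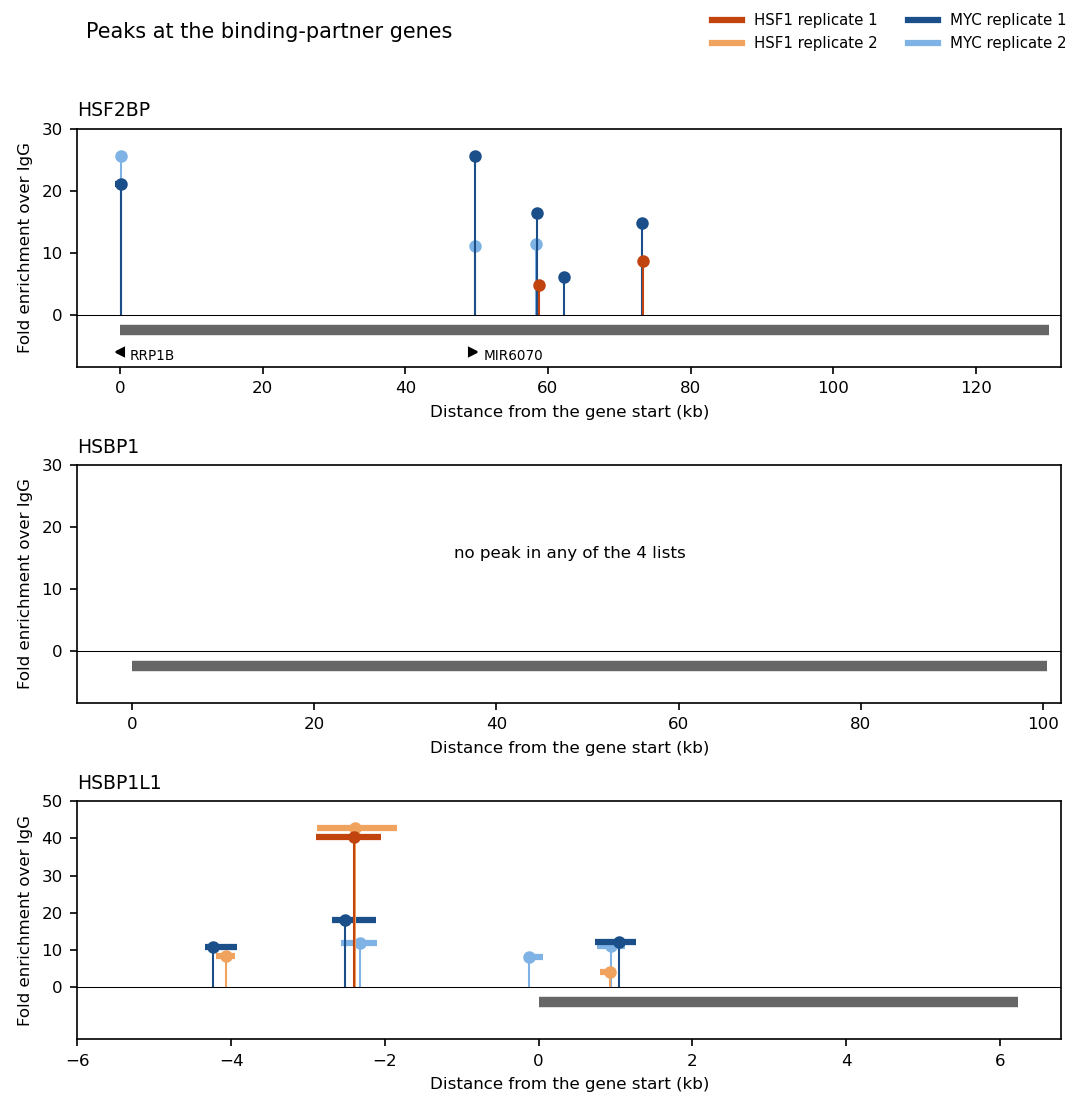
Peaks at HSF2BP, HSBP1 and HSBP1L1. Axes and symbols are as in the map of the heat shock factor genes, with distance in kb from the outermost gene start on x and fold enrichment over IgG on y. HSF2BP has HSF1 replicate 1 peaks at 8.74 and 4.81 deep inside the gene, HSBP1 has no peak, and HSBP1L1 has HSF1 peaks at 40.5 and 42.9 upstream. Starts of other genes are not marked at HSBP1L1.

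HSBP1 (ENSG00000230989, chr16:83719311-83819737, plus strand), whose small coiled-coil product binds HSF1 trimers, had 0 peaks in its window of 105 kb in all 4 lists. The nearest peaks were 1032 kb away in HSF1 replicate 1, 107 kb in HSF1 replicate 2, 133 kb in MYC replicate 1 and 297 kb in MYC replicate 2. The outermost annotated start lies 88667 bp upstream of the canonical start at 83807978, so both starts were checked, and neither had a peak within 1 kb. Of genes with windows of 100 to 200 kb, 77.0% and 54.7% had a peak in MYC replicates 1 and 2. The RefSeq promoter entry of HSBP1 held no E-box and no heat shock element. Within 1 Mb there were 18 summits in MYC replicate 1 and 6 in MYC replicate 2, below the medians of 28 and 14.

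Its paralog HSBP1L1 (chr18:79964582-79970822, plus strand) gave the opposite picture. An HSF1 peak with its summit 2407 and 2384 bp upstream in the 2 HSF1 lists had a fold enrichment of 40.5 and a pileup of 71 in HSF1 replicate 1, and 42.9 and 75 in HSF1 replicate 2, for a mean of 41.7 ± 1.73 (SD, n = 2). These were higher than 99.8% and 99.5% of the peaks of their lists, and the replicates nearly coincided. The peaks, 79961688-79962532 and 79961699-79962740, held the 2 overlapping heat shock elements printed above, starting at 79962075 and 79962080 and 95 to 123 bp from the summits. MYC peaks lay inside the same interval, with fold enrichments of 18.0 in MYC replicate 1 and 11.9 in MYC replicate 2, and they held no E-box. The peak overlapped the long noncoding RNA gene ENSG00000287879 on the opposite strand. The start of that gene, at 79963178, lies between the HSF1 summits and the HSBP1L1 start and is thus nearer to the summits. Position therefore does not assign the peak to HSBP1L1.

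HSBP1L1 belonged to a set of 44 other genes of the HSF1 pathway, in 6 lists, that was examined next. Of these, 14 (31.8%) had a peak in HSF1 replicate 1, 10 (22.7%) in HSF1 replicate 2 and 9 (20.5%) in both, beside 16.5%, 12.3% and 7.81% of all protein-coding genes. In the MYC lists, 42 (95.5%) had a peak in replicate 1, 32 (72.7%) in replicate 2 and 32 in both, beside 63.3%, 46.2% and 45.4%. All 9 genes with an HSF1 peak in both HSF1 lists also had a peak in both MYC lists, as did 72.7% of the 44. The matching share among all protein-coding genes with a peak in both HSF1 lists was not computed. Whether the sharing at these 9 is particular to this pathway was therefore not tested.

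**Figure D4:**
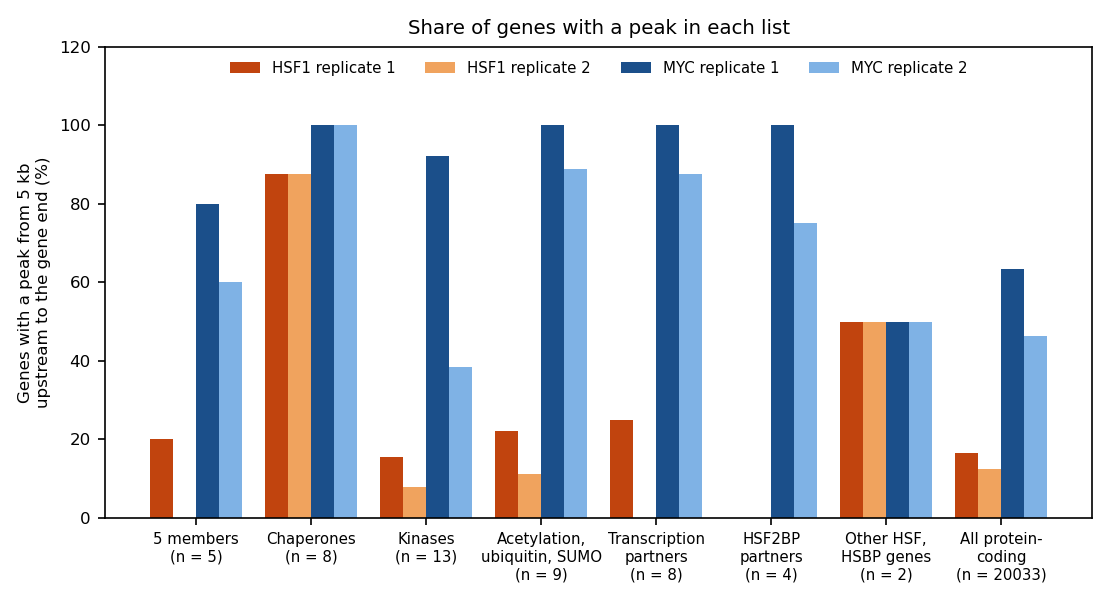
Share of genes with a peak from 5 kb upstream to the gene end. The y axis is the percent of genes, starting at 0, for the 5 members, the 6 lists of other pathway genes and all protein-coding genes, and the 4 bars per group are the 4 peak lists. The chaperones stand at 87.5% in both HSF1 lists, while the members stand at 20% and 0%.

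The HSF1 peaks of the pathway were concentrated at the chaperones that bind HSF1. Several of these are themselves textbook targets of HSF1. Of 8 such genes, 7 had a peak in both HSF1 lists, beside 7.81% of all genes. The exception was STUB1, a ubiquitin ligase that works with HSP70. In both MYC lists 8 had a peak, beside 45.4%. Within 1 kb of the outermost start, 5 of the 8 had a peak in both HSF1 lists, beside 2.54%. DNAJB1 and HSP90AA1 had none there. Their strongest peaks in HSF1 replicate 1 had summits 42314 and 52609 bp inside that start. For HSPA8, the constitutive HSP70, the highest HSF1 fold enrichments were 42.7 and 45.5 in replicates 1 and 2. For the HSP90 genes they were 27.2 and 59.4 at HSP90AA1 and 22.9 and 35.7 at HSP90AB1. All of these were above 98.9% of the peaks of their lists, unlike any HSF1 peak at the 5 members.

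DNAJB1, an HSP40 that ends the heat shock response by recruiting HSP70 to HSF1, had 25.1 and 31.4. PTGES3, the HSP90 cochaperone p23, had lower HSF1 fold enrichments of 7.0 and 14.7. HSPA1A had 7.46 and 16.0 and HSPA1B 22.7 and 28.9, but these inducible HSP70 genes are near-identical copies, and reads may not be placed with certainty between them.

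Of 13 kinases that act on HSF1, 12 (92.3%) were called in MYC replicate 1, beside 63.3% of all genes, and 5 (38.5%) in MYC replicate 2, beside 46.2%. The 5 were CSNK2A1, DYRK2, GSK3B, MAPK8 and PRKAA1, all but GSK3B named here after their values were seen. HSF1 peaks were called at GSK3B, a kinase that represses HSF1, in both HSF1 lists with fold enrichments of 3.60 and 2.88, and at MTOR in replicate 1 with 4.20. These were low within their lists, above 10.9%, 1.49% and 25.8% of the peaks. PLK1, the mitotic kinase that phosphorylates HSF1 and that the study targets, had a peak in MYC replicate 1 alone, 960 bp inside the gene, with a fold enrichment of 13.2. HSF5, the heat shock factor of the male germ line, and AKT1 had no peak in any list.

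**Figure D5:**
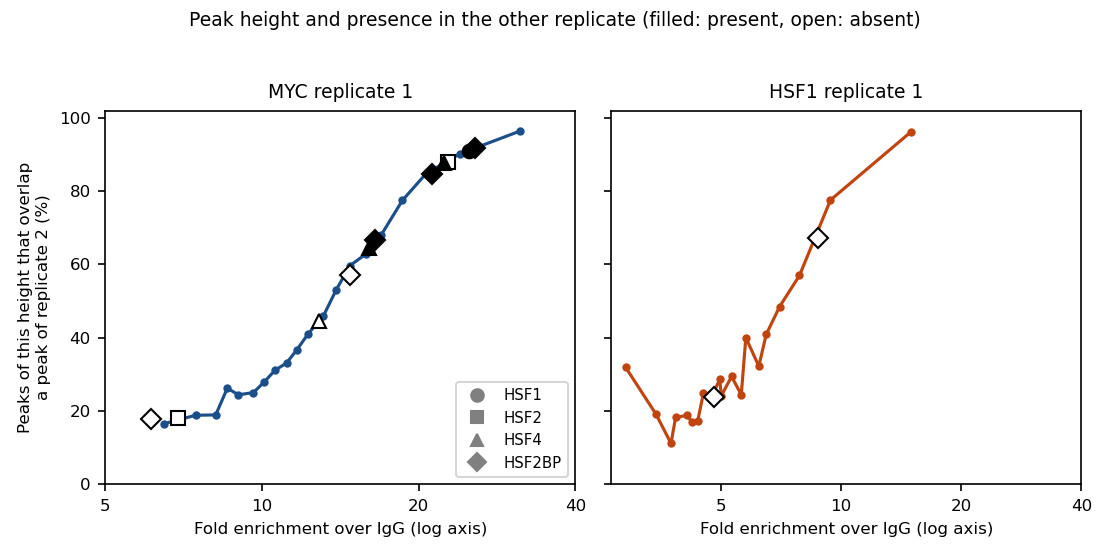
Height of the replicate 1 peaks and their presence in replicate 2. The lines show, for 20 bins of all peaks by fold enrichment over IgG (x, log axis), the percent that overlap a peak of the other replicate (y). Bins held 1139 to 1412 peaks in MYC replicate 1 and 227 to 417 in HSF1 replicate 1. Symbols place each member peak at its fold enrichment and at the percent for peaks within 10% of it. They are filled where the peak itself is in replicate 2 and open where it is not. The HSF2 start-site peak is an open symbol at 22.8 and 87.9%, higher than 4 of the filled ones.

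Whether a member peak was in both replicates broadly followed its height in replicate 1. Of the 11 MYC replicate 1 peaks, the 6 found in replicate 2 had fold enrichments of 16.0 to 25.7. Those not found were 6.12, 6.89, 12.9 and 14.7, and the peak of 22.8 at the HSF2 start. HSF2 was thus the only gene of the 5 at which a peak above 16.0 was called in a single MYC list. That cutoff, the lowest of the 6, was set from these same values.

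Genes whose MYC start-site heights were most like those of the members were found by the smallest distance between log2 fold enrichments in the 2 MYC lists, among 5402 genes called at the start in both MYC lists and in no HSF1 list. For HSF1, HSF4 and HSF2BP the nearest were BOP1, ENSG00000265690 and RRP1B, which share the same peak. The next were SNX32 and POLR3K for HSF1, with fold enrichments of 25.3 and 21.7 and of 25.0 and 22 in MYC replicates 1 and 2. For HSF4 they were PUM2, at 22.3 and 14.3, and FOXP4, at 22.2 and 14.4. For HSF2BP they were NEPRO, at 22 and 25.4, and RBM38, at 20.6 and 26.3. Likeness over 2 lists describes heights only.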

How the data were processed

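CUT&RUN peak lists of 2 HSF1 and 2 MYC libraries of OVCAR8 cells, each called against 1 IgG library, were analysed. Per the labels and the study's methods, the authors demultiplexed reads with bcl2fastq 2.20.0, trimmed them, aligned them to GRCh38 with Bowtie2, and ran MACS 2.2.9.1 on each library alone, at a p-value cutoff of 1e-04 (HSF1) or 1e-10 (MYC). Versions of other tools are not given in the sources used here. The authors deposited for each peak the pileup, a fragment coverage signal at the summit after the larger library was scaled to the smaller, the −log10 p against the local IgG level by a Poisson model, and the fold enrichment, the ratio of summit to IgG signal. The deposited −log10 q column was not used. The 4 lists held 6477 and 4492 HSF1 peaks and 25646 and 13290 MYC peaks, so thresholds and list sizes differ between factors and heights were ranked within a list. The file headers name the control as IgG replicate 2, while the labels list 1 IgG sample.

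Lists were read with pandas 2.3.3 and numpy 2.4.6 in Python 3.11.15, sequences with pysam 0.24.0 and figures drawn with matplotlib 3.10.9. The IgG background was computed as the pileup plus 1, divided by the fold enrichment, minus 1, and recovered the deposited −log10 p within 1% for 100% of peaks. Gene windows ran from 5 kb upstream to the gene end and start-site windows 1 kb to each side. Heat shock elements and E-boxes were searched on both strands. Counting was tested on 20 simulated lists, each with peaks planted in 200 genes, all recovered. No test across lists was made. Alternatives changed thresholds, windows, gene starts, the height measure and the replicates used.

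The members and lists were chosen with earlier results of these data known. Named genes are the members, the pathway genes with a peak in both HSF1 lists, PLK1, the 3 genes most like each member and neighbors with a start within 1 kb of a peak; others are said to be named after their values were seen or complete a count of 5 or fewer. Peak lists hold no expression, so the labelled cell type was not checked against markers. Some genes of the pathway lists are counted but not reported here by name.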

Additional observations from a re-analysis of the deposited data

How the results depend on the processing

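Of 72 alternatives for the counts of genes and peaks, 68 stayed within 1.5 times the reported count, 4 moved and 0 reversed. Several could not move. A stricter threshold on the HSF1 lists cannot change a MYC count, and stricter thresholds or smaller windows cannot lower an HSF1 count of 0. The share that stayed therefore overstates how stable the counts are. From a single replicate, the members with an HSF1 peak numbered 0 (without replicate 1) to 1 (without replicate 2, HSF2BP), and the pathway genes with an HSF1 peak 10 to 14, against 9 in both. The 2 peaks of HSF1 replicate 1 at HSF2BP became 1 when HSF1 lists were held to a −log10 p of at least 10, the threshold of the MYC lists, and 0 at 20 for all lists. The mean rank of the strongest MYC peak by pileup in place of fold enrichment went from 94.2 to 90.0 at HSF1, from 90.9 to 81.7 at HSF2 and from 96.0 to 81.8 at HSF2BP, in percent of peaks below, and at HSF4 from 84.1 to 92.5, within its spread. The HSF2 rank rests on MYC replicate 1 alone. The strongest HSF2BP peak was that near MIR6070 in MYC replicate 1 and that at the start in MYC replicate 2. The HSF2BP start-site peaks alone had a mean rank of 92.9 by fold enrichment. No paired analysis was possible because the results come from no test and the replicates share only a number. Depth limits absence: the lowest pileup called was 5 fragments in the HSF1 lists and 10 and 11 in the MYC lists. PCR copies are not independent molecules.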

Other observations

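Partners of HSF2BP in recombination, named here after their values were seen, carried MYC peaks and no HSF1 peak. BRCA2 had start-site fold enrichments of 14.8 in MYC replicate 1 and 10.3 in MYC replicate 2, and PALB2, which joins BRCA2 to BRCA1, had 12.2 and 13.4. BRME1, which binds HSF2BP in meiosis, was called in MYC replicate 1 alone with 5.90.

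Among 9 genes that acetylate, deacetylate, ubiquitinate or sumoylate HSF1 or handle the modified protein, 9 had a peak in MYC replicate 1 and 8 in MYC replicate 2, beside 63.3% and 46.2% of all protein-coding genes. In both HSF1 lists 0 of the 9 had a peak, beside 7.81% of all genes, a share at which 0 of 9 does not stand apart. EP300, an acetyltransferase, had an HSF1 peak in HSF1 replicate 2 alone, with a fold enrichment of 5.40. FBXW7, the ubiquitin ligase adaptor that targets HSF1 and MYC, and the segregase VCP had one in HSF1 replicate 1 alone, with 5.60 and 3.44. The MYC peak at FBXW7 had fold enrichments of 26.2 and 11.5 in MYC replicates 1 and 2.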
